A study of Caenorhabditis elegans with 12 samples.

Results

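Whole late L4 animals of Caenorhabditis elegans that lack mir-58, mir-80, mir-81 and mir-82 were compared with wild type by RNA sequencing. All 16309 genes that the authors' deposited table lists belong to this comparison, and the values are the authors' own log2 fold changes of the quadruple mutant over wild type with their adjusted p-values. The quadruple mutant, strain MT15563 with the genotype nDf53 III, mir-58(n4640) IV and nDf54 X, and the wild type, N2 Bristol, had 3 samples each. Wild type was collected 33 h after transfer and the mutant 15 h later, so genotype and time of collection cannot be told apart in any value given here. The series also holds 3 samples each of mir-58 (MT15024, collected with wild type) and of the double mutant (MT18409, nDf53 III and mir-58(n4640) IV, collected 6 h after wild type), which share the wild type samples with the quadruple mutant. Each mutant is 1 strain, and the labels do not say whether its samples came from separate cultures. No other member of the family is named in the genotypes. The table holds no values per sample, so neither depth nor replicate spread can be given, and the error of each fold change enters through the authors' adjusted p-value only. RNA came from whole animals, so fewer cells of a type and less RNA per cell cannot be told apart.

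MicroRNAs are short RNAs that guide Argonaute proteins to partly complementary sites in messenger RNAs, mostly through the seed near their 5' end, and lower the stability and translation of those messengers. The miR-58 family of nematodes shares its seed with Drosophila bantam and is among the most abundant microRNA families of the worm, with broad expression in hypodermis, intestine and other somatic tissues. Animals that lack several members are known to be small, slow-growing and defective in dauer formation, and genes of TGF-beta signalling and the p38 kinase gene pmk-2 have been reported as targets.

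A gene was called higher or lower where the authors' adjusted p-value was under 0.05. By this rule 3920 of the 16309 listed genes (24%) were called, 2318 higher (14.2%) and 1602 lower (9.82%), and the members of each gene group below are to be read against these shares. The increases were larger than the decreases. The median log2 fold change of the genes called higher was 2.44, and that of the genes called lower was -1.05. A change of at least 2-fold was found for 1951 of the higher and 881 of the lower genes, and one of at least 8-fold for 867 and 52. No gene was called with a log2 fold change closer to 0 than 0.60. Size alone did not decide a call, since 1077 genes at 1 or above and 340 genes at -1 or below were not called, up to 3.62 and down to -3.83. Over all listed genes the median was 0.11 and the quartiles were -0.37 and 0.68.

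**Figure D1:**
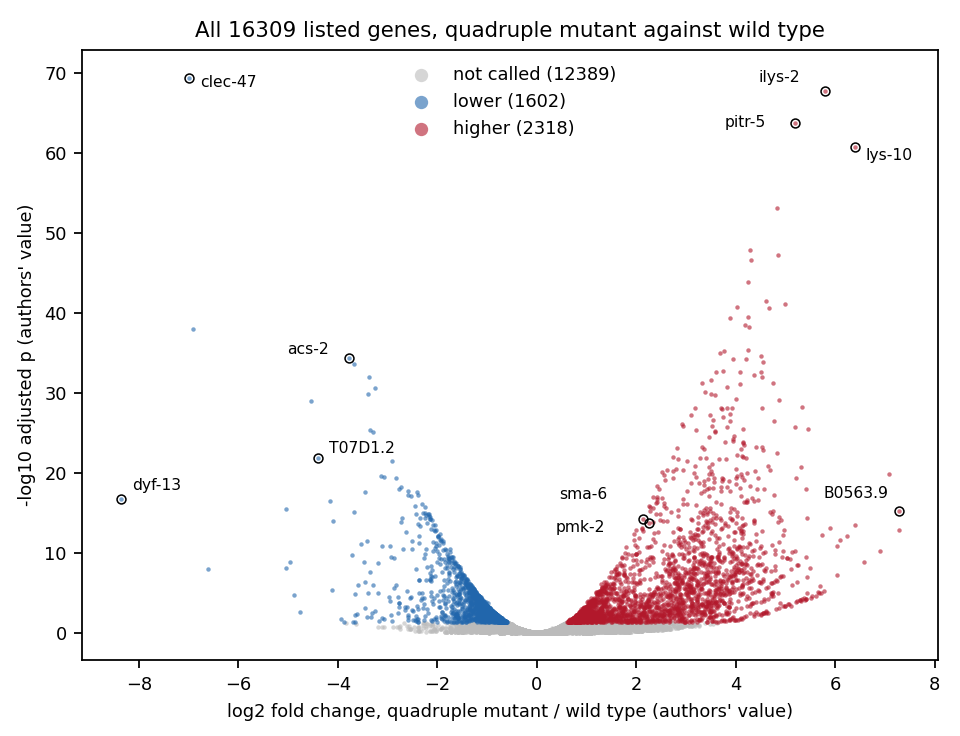
Each point is 1 of the 16309 listed genes, with the authors' log2 fold change of the quadruple mutant against wild type on the x axis and -log10 of the authors' adjusted p-value on the y axis, and circles mark named genes. The 2318 genes called higher (red) reach farther from 0 than most of the 1602 called lower (blue), and dyf-13 and clec-47 have the lowest values on the left.

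The smallest adjusted p-values among genes that rose were those of ilys-2, an invertebrate-type lysozyme gene, at 5.80 (adjusted p = 2.20e-68), the phosphate transporter gene pitr-5 at 5.20 (1.72e-64), the lysozyme gene lys-10 at 6.39 (1.81e-61), T26H5.9 at 4.84 (8.41e-54), thn-2, a thaumatin-like gene, at 4.28 (1.51e-48), R09E10.6 at 4.86 (6.85e-48) and the beta-tubulin gene tbb-6 at 4.30 (2.52e-47) in the authors' deposited table. Further genes among the 15 smallest p-values included spch-1 (listed as C04G2.8), a sperm chromatin protein gene, at 4.02 and spch-3 (T27A3.4) at 4.18 by the authors' deposited table. The largest increases belonged to B0563.9 and T26H5.10, both at 7.28, to C02E7.10 at 7.09 and to B0507.6 at 6.90 per the authors' deposited table. On the other side, the C-type lectin gene clec-47 had the smallest p of all genes, with -6.99 and an adjusted p of 4.52e-70 in the authors' deposited table. Others among the 15 smallest p-values of genes that fell were pud-3 (F15E11.15) at -6.90, the acyl-CoA synthetase gene acs-2 at -3.77, the collagen gene col-156 at -3.38, acox-1.2 (F08A8.2), a peroxisomal acyl-CoA oxidase gene, at -3.25, the aspartyl protease gene asp-14 (K10C2.3) at -3.39 and the ammonium transporter gene amt-4 at -3.36 by the authors' deposited table.

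The lowest value of all was that of dyf-13, which encodes a component of intraflagellar transport in the cilia of sensory neurons. It stood at -8.35 in the quadruple mutant (adjusted p = 2.21e-17), at -2.24 in the double mutant and at -1.16 in mir-58 per the authors' deposited table. Its listed neighbours on both sides, C27H5.4 and glc-4, were at 0.78 and -0.27 per the authors' deposited table and were not called. Of the 63 listed genes of the cilium and of intraflagellar transport, dyf-13 alone fell and 6 rose. Those that rose included che-11 and dyf-14 at 1.74 and 1.66 by the authors' deposited table. Genes beside clec-47 were likewise not called, with str-45 at 1.03 and fbxa-84 at -0.15 per the authors' deposited table.

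The table lists no microRNA genes, so the deleted loci were examined through the genes around them. T07D1.2 (current symbol gid-2) contains mir-81 and mir-82 in the annotation and fell to -4.39 (adjusted p = 1.36e-22), against 0.29 in the double mutant and 0.33 in mir-58, which keep this locus, in the authors' deposited table. Next to it lies glr-7, a glutamate receptor subunit gene, which rose by 2.85 (adjusted p = 1.37e-04) by the authors' deposited table. T07D1.3, the next listed gene on the other side, stood at -0.03 per the authors' deposited table. Both listed genes beside mir-80 were uncalled, F44E2.8 at -0.24 and K01F9.2 at 0.64 in the authors' deposited table. Y67D8A.2, in which mir-58 lies, was at -0.18 and not called by the authors' deposited table, while M4.1 on one side rose by 0.74 (adjusted p = 0.0207) and Y67D8A.3 on the other, at 0.80, was not called. A further microRNA gene of the family by name, mir-58.2, is not part of the genotype. C01B10.11, on one side of it, was at -0.27 and not called per the authors' deposited table. Y73B6A.1, on the other, stood at 2.83 in the quadruple mutant (adjusted p = 1.11e-06) and at 2.61 in the double mutant per the authors' deposited table.

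Of 6 listed genes that have been reported as targets of the family, 3 rose and none fell. The p38 kinase gene pmk-2 stood at 2.26 (adjusted p = 2.14e-14) and the type I TGF-beta receptor gene sma-6 at 2.14 (adjusted p = 7.13e-15) in the authors' deposited table. The increase in daf-4, which encodes the type II receptor, was smaller, at 0.73 (adjusted p = 0.0207) by the authors' deposited table. The rest were not called, with daf-1, the type I receptor gene of the dauer pathway, at 0.51, the histone acetyltransferase gene cbp-1 at 0.21 and the ligand gene dbl-1 at 0.11 per the authors' deposited table.

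These genes were then placed in their pathways. In the pathway that sets body size, DBL-1 binds the receptors SMA-6 and DAF-4, which act through the Smad proteins SMA-2, SMA-3 and SMA-4. Of 14 listed members 5 rose and 1 fell, but at a threshold of 0.01, by which 17.4% of all genes were called (11.1% higher and 6.32% lower), only sma-6 was left. Its median was 0.28. Besides both receptor genes the increases were in sma-4 at 0.81 (adjusted p = 0.0107), sma-2 at 0.81 (adjusted p = 0.0429) and the transcription factor gene sma-9 at 0.69 (adjusted p = 0.0234) in the authors' deposited table. The decrease was in lon-2, which encodes a glypican that holds the pathway down, at -0.87 (adjusted p = 0.0185) by the authors' deposited table. In the dauer branch 2 of 10 listed genes rose, daf-14, a Smad gene, at 0.78 and the shared daf-4 per the authors' deposited table, and none did at 0.01. In the p38 immune kinase pathway pmk-2 was the single call among 15 listed genes. The other p38 genes, which lie in the same operon, were at 0.22 for pmk-1 (adjusted p = 0.685) and at 0.34 for pmk-3 (adjusted p = 0.444) in the authors' deposited table. The kinases upstream, nsy-1 and sek-1, stood at -0.08 and -0.27 and were not called, as the authors' deposited table has it.

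Genes of microRNA processing and silencing moved little, with 2 of 22 higher, 1 lower and a median of -0.03. The increases were in drsh-1, the nuclear microprocessor RNase gene, at 0.96 (adjusted p = 0.0316), and dcr-1, the Dicer gene, at 0.87 (adjusted p = 2.74e-03), and the decrease in tsn-1 at -0.85 (adjusted p = 0.0278) by the authors' deposited table. The microRNA Argonaute genes alg-1 and alg-2 were not called, at -0.05 and -0.18 per the authors' deposited table. Among 34 genes of germline small RNA pathways 7 rose and 1 fell, led by alg-3 (T22B3.2), an Argonaute gene of spermatogenesis, at 3.75 (adjusted p = 2.19e-33) in the authors' deposited table. The genes rde-1 and rrf-3, of RNA interference, were at 0.93 and 0.84 by the authors' deposited table.

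Cell death genes gave 5 increases and 1 decrease in 21 listed genes. The core genes ced-3, the caspase, and ced-4, its activator, rose by 0.89 (adjusted p = 8.74e-03) and 0.93 (adjusted p = 7.98e-03) per the authors' deposited table. Their inhibitor gene ced-9 also rose, by 0.69 (adjusted p = 0.0444), and wah-1, the gene of a mitochondrial apoptosis factor, fell to -0.81 (adjusted p = 5.40e-03) in the authors' deposited table. A caspase-related gene, csp-1, had the largest increase in the list, 3.47 (adjusted p = 2.58e-04) by the authors' deposited table.

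Genes of sperm had the highest share of increases among the gene lists. All 16 listed major sperm protein genes rose, from 3.71 for msp-36 to 5.43 for msp-59 per the authors' deposited table, with a median of 4.43. These genes encode the motility protein of nematode sperm and are near-identical copies, so reads may have been split among them. Of 52 other spermatogenesis genes 45 rose (42 at 0.01) and none fell, and their median was 3.16. Examples are comp-1 (F37E3.3), a kinase-like gene of sperm competition, at 6.04 and ssq-1 at 4.25 (adjusted p = 5.25e-36) in the authors' deposited table. The lowest member was fog-3, which starts the sperm fate in germ cells, at -0.47 and not called by the authors' deposited table. Transporter families were looked at next. Of 12 sodium-dependent transporter genes 8 rose and none fell, among them snf-10, which acts in sperm activation, at 3.99 and snf-9 at 4.13 (adjusted p = 4.03e-20) per the authors' deposited table. The 4 snf genes that were not called were snf-3, snf-6, snf-11 and snf-12, between -0.56 and 0.02 in the authors' deposited table. Of 9 white-type ABC transporter genes, a group chosen after its values were seen, 6 rose, with wht-8 at 4.96 by the authors' deposited table. The list of 50 ABC transporter genes was mixed, with 12 higher and 8 lower at a median of 0.02. Hermaphrodites make sperm during L4 and then switch to oocytes.

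Histone genes rose in 20 of 40 cases and none fell, at a median of 1.31 (13 rose at 0.01). The highest was his-67 at 4.61 (adjusted p = 3.19e-03), and the smallest p belonged to his-70 at 2.68 (adjusted p = 1.29e-11) per the authors' deposited table. The linker histone gene hil-3 stood at 1.24 (adjusted p = 1.11e-05) in the authors' deposited table. Histone genes too are near-identical copies and many of their transcripts lack a poly(A) tail, so their values depend on how RNA was selected and reads were assigned.

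Oocyte and egg genes rose in smaller numbers. Of 23 oocyte RNA-binding and signalling genes 6 rose and none fell (3 at 0.01), at a median of 0.55. The smallest p-values were those of puf-3 and puf-5, translational repressors of oocytes, at 1.12 and 1.2, and rme-2, the yolk receptor gene, at 0.95 by the authors' deposited table. The list also holds uncalled members such as oma-2 and lin-41, at 0.06 and -0.24 per the authors' deposited table. Of 21 eggshell genes 6 rose and 1 fell, with perm-4 (C44B12.5) at 1.94 (adjusted p = 8.71e-06), cpg-3 at 1.84 and cpg-2, an eggshell proteoglycan gene, at 1.32 in the authors' deposited table. Among 5 yolk protein genes, which the intestine expresses in adults, vit-6 and vit-2 rose by 2.74 (adjusted p = 9.79e-23) and 1.84 (adjusted p = 1.58e-10), while vit-3, vit-1 and vit-4 at 0.89, 0.26 and -0.37 were not called by the authors' deposited table. Of 37 genes of meiotic synapsis and recombination 5 rose and none fell (2 at 0.01). The share called higher, 13.5%, was near the 14.2% of all genes, and at 0.01 it was below their 11.1%. The largest increase in this list was that of lab-1 (C03D6.6), a protector of meiotic cohesion, at 2.08 per the authors' deposited table. Of 27 stem cell and P granule genes 3 rose (11.1%, below the 14.2% of all genes), meg-1 at 2.92, mes-3 at 1.00 and gld-1 at 0.83 in the authors' deposited table. None of 9 embryo markers was called. Of 21 sex determination genes 2 rose (9.52%, also below the share of all genes), sdc-1 at 1.22 and sdc-3 at 1.16, both also of X chromosome dosage compensation, by the authors' deposited table. Cell cycle and replication genes rose in 7 of 31 cases, 2 of them at 0.01, with the Aurora kinase gene air-2 at 0.99 per the authors' deposited table.

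The cuticle of C. elegans is renewed at each moult from stage-specific collagens. Adult cuticle collagens rose in 5 of 8 cases and none fell, with a median of 2.18. The adult collagen gene col-19 stood at 2.84 (adjusted p = 3.35e-08), col-63 at 2.51, col-49 at 2.42 and col-38 at 1.94 in the authors' deposited table. The highest member, col-7 at 3.07, was not called (adjusted p = 0.134) by the authors' deposited table. The 148 listed col genes as a whole moved both ways, 48 lower and 25 higher, at a median of -0.29. They ranged from -4.75 for col-102 to 3.51 for col-129 per the authors' deposited table, and the lower ones with the smallest p-values were col-156 at -3.38, col-180 at -2.83 and col-157 at -2.38. None of 6 furrow collagens was called, and their values ran from -0.20 for dpy-9 to 0.54 for dpy-8 in the authors' deposited table. Of 13 other shape collagens dpy-17 rose by 2.56 (adjusted p = 1.42e-16) and bli-2 by 0.92 by the authors' deposited table. Of 39 cuticlins 1 rose and 2 fell, and the cuticlin gene cut-1 stood at -4.87 (adjusted p = 2.24e-05) per the authors' deposited table.

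Other lists that were grouped with the cuticle genes also split. Prion-like and pharyngeal gland genes, many of which form the pharyngeal cuticle, fell in 39 cases and rose in 8, and 65 were not called. The abu and pqn families were set apart after their values were seen. Of 8 abu genes 7 fell, with abu-4 at -3.40 and abu-6 at -2.70 (adjusted p = 4.70e-15) in the authors' deposited table. The 66 pqn genes were split, 10 lower against 7 higher, and the middle value was 0.00. The highest of them, pqn-84, rose by 4.11 by the authors' deposited table. Of 54 hedgehog-related ligand genes 12 fell and 8 rose, from grl-25 at -3.62 to grd-11 at 2.01 among those called per the authors' deposited table. Among 29 patched-related receptor genes ptr-10 alone rose, by 1.35, and 4 fell, as counted in the authors' deposited table. Of 29 astacin metalloprotease genes 7 fell and 3 rose, with nas-3 at 3.58 (adjusted p = 1.77e-30) by the authors' deposited table. Of 31 genes of moulting and cuticle crosslinking 6 fell and 2 rose. The prolyl 4-hydroxylase gene dpy-18 was at -0.92, the dual oxidase maturation gene doxa-1 (C06E1.3) at -1.43 and bli-5, a protease inhibitor gene, at -1.23 per the authors' deposited table. The receptor gene lrp-1, needed for moulting, rose by 1.22 (adjusted p = 8.45e-06) in the authors' deposited table. Transthyretin-related genes gave 8 higher and 9 lower of 51, and ttr-9 and ttr-14 were at 3.97 and 3.92 by the authors' deposited table.

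Genes of mitochondria fell together, each by a small amount. Of 67 mitochondrial ribosomal protein genes 53 fell (32 at 0.01) and none rose, and the median was -0.80. All 67 values were below 0, from -1.33 for mrps-28 (Y43F8C.8) to -0.08 for mrpl-24 (F59A3.3) per the authors' deposited table. In the small subunit 23 of 28 genes were lower, at a median of -0.81, and in the large subunit 30 of 39, at -0.79. The respiratory chain and ATP synthase had 70 listed genes, of which 46 fell and 2 rose, at a median of -0.72 (23 lower at 0.01). They included sdha-1, the flavoprotein gene of succinate dehydrogenase, at -1.01, cox-17 (F40G9.2), of copper delivery to cytochrome oxidase, at -1.17 and the complex I gene gas-1 at -0.92 in the authors' deposited table. Those that rose were cyc-2.2, a second cytochrome c gene, at 3.10 and ant-1.3, an adenine nucleotide carrier gene, at 2.39 by the authors' deposited table. In the citric acid cycle and pyruvate dehydrogenase 14 of 20 genes fell and none rose (median -0.81), such as sucl-2 (F23H11.3) at -0.99 and idh-2 (C34F6.8) at -0.98 per the authors' deposited table. The mitochondrial chaperone genes hsp-60 and hsp-75 (R151.7) were at -1.31 and -0.95 per the authors' deposited table, in a list of 60 chaperones of which 13 fell and 3 rose.

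**Figure D2:**
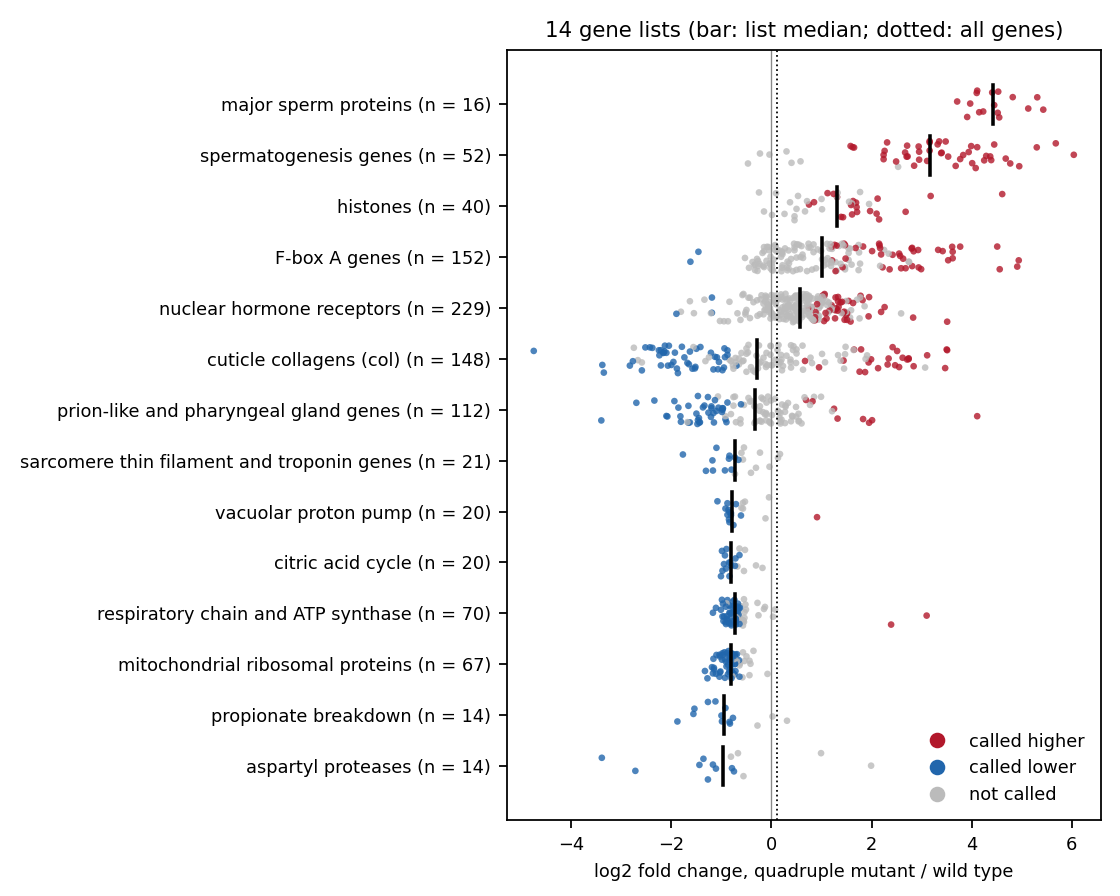
Each point is 1 listed gene of the named list, with its log2 fold change in the quadruple mutant against wild type on the x axis, coloured by its call, with random vertical spread. Black bars are list medians and the dotted line the median of all genes. All 16 major sperm protein genes lie right of 3, all 67 mitochondrial ribosomal protein genes lie left of 0, and col genes spread to both sides.

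In propionate breakdown 11 of 14 genes fell (9 at 0.01) and none rose, and the median was -0.96. Worms degrade propionate by a vitamin B12-dependent route and by a shunt used when B12 is low. Members of both fell. In the shunt hach-1 (F09F7.4) stood at -1.88, ech-6 at -1.56, hphd-1 (Y38F1A.6) at -1.54 and acdh-1 at -0.92 by the authors' deposited table. In the B12-dependent route pccb-1, of propionyl-CoA carboxylase, was at -1.27 per the authors' deposited table. The receptor genes nhr-10 and nhr-68, known activators of the shunt, were at 0.02 and 0.31 and not called in the authors' deposited table. Amino acid breakdown had 9 decreases and no increase in 21 genes, led by the glycine cleavage genes gldc-1 (R12C12.1) at -1.66 (adjusted p = 2.12e-09) and gcsh-1 (D1025.2) at -2.10 by the authors' deposited table. Glycolysis and gluconeogenesis genes fell in 6 of 24 cases, among them pck-1 (W05G11.6), of gluconeogenesis, at -1.12 per the authors' deposited table.

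In lipid metabolism decreases outnumbered increases. Of 35 genes of fatty acid synthesis, desaturation and elongation 18 fell and 2 rose, at a median of -0.72. The desaturase gene fat-7 was at -2.77 (adjusted p = 1.09e-18), dgat-2 (F59A1.10), of triglyceride synthesis, at -2.58 and the elongase gene elo-6 at -2.08 in the authors' deposited table. The 2 that rose were other elongase genes, elo-8 at 3.17 and elo-7 at 2.65 by the authors' deposited table. Of 76 genes of fatty acid breakdown and acyl-CoA synthesis 28 fell and 8 rose. Several of the latter were acyl-CoA synthetase and dehydrogenase genes with large changes, such as acs-15 (R07C3.4) at 5.19 and acdh-8 at 3.47 per the authors' deposited table, which stood at -2.13 and -3.46 in mir-58. In the methionine cycle and phosphatidylcholine synthesis 6 of 22 genes fell, including ahcy-1 (K02F2.2) at -1.29, pmt-2 at -1.1 and the choline phosphotransferase gene cept-1 at -1.44 in the authors' deposited table. The transsulfuration genes cth-1 (F22B8.6) and cbs-2 (F54A3.4) rose by 2.46 (adjusted p = 1.09e-18) and 2.28 by the authors' deposited table, while their paralogs cth-2 (ZK1127.10) and cbs-1 (ZC373.1) were uncalled at -0.34 and -0.66.

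Genes of the lysosome and the gut lumen moved unevenly. The vacuolar proton pump had 13 of 20 genes lower and 1 higher (8 lower at 0.01), at a median of -0.79. Its lowest member was vha-12 at -1.08, and vha-18 was the one that rose, at 0.91, per the authors' deposited table. Of 14 aspartyl protease genes 9 fell and none rose, from asp-14 (K10C2.3) at -3.39 and asp-12 at -2.72 to asp-4 at -0.75 in the authors' deposited table. Cathepsin cysteine protease genes gave 3 lower and 2 higher of 11. Lysosomal lipase genes went more often up, with 3 higher and 1 lower of 7 and a median of 0.29. Of 28 genes of intestinal fate and lumen 8 fell and 2 rose. The intestinal actin gene act-5, of the microvilli, stood at -1.67 and ifd-2, an intermediate filament gene of the gut, at -1.23 by the authors' deposited table. Of 29 antioxidant enzyme genes 10 fell and 1 rose, with the methionine sulfoxide reductase gene msra-1 (F43E2.5) at -2.25 (adjusted p = 4.75e-15) and the extracellular superoxide dismutase gene sod-4 at 1.35 per the authors' deposited table. Of 22 iron and metal genes 5 fell and the ferritin gene ftn-1 rose, by 3.76 (adjusted p = 6.94e-36) in the authors' deposited table. The heme transporter gene hrg-1 and hrg-7 (C15C8.3), of heme signalling, were at -1.63 and -1.89 by the authors' deposited table.

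In muscle the decreases were moderate. Of 21 thin filament and troponin genes 11 fell and none rose (7 at 0.01), at a median of -0.73. The troponin I gene unc-27 stood at -1.18 (adjusted p = 5.67e-04) per the authors' deposited table. Of 12 thick filament genes 5 fell and 1 rose. The body wall myosin heavy chain gene unc-54 was at -1.43 (adjusted p = 0.0302), the paramyosin gene unc-15 at -1.16 and the myosin light chain gene mlc-1 at -1.39 (adjusted p = 9.64e-05), whereas the titin-like gene ttn-1 was at 0.64 in the authors' deposited table. The pharyngeal myosin gene myo-2 was at -0.41 and not called by the authors' deposited table. Of 30 genes of muscle attachment and excitation 9 fell and 2 rose, and the potassium channel gene twk-18 was at -1.19 per the authors' deposited table. Basement membrane genes gave 1 call in 19, the laminin gene lam-3 at 2.00 (adjusted p = 1.47e-10) in the authors' deposited table.

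Protein synthesis genes showed a small decrease beside some large single values. Of 42 translation factor genes 16 fell and none rose (6 at 0.01), at a median of -0.60, with clu-1 at -1.08 and eif-3.J at -1.03 by the authors' deposited table. Of 79 cytosolic ribosomal protein genes 15 fell and 9 rose. Single members reached -4.54 for rps-16 and -4.15 for rpl-14 on one side and 3.58 for rpl-42 and 3.56 for rpl-19 on the other per the authors' deposited table. How the authors counted reads shared among gene copies is not given in the sources used here. The listed gene next to rps-16, fib-1, which encodes fibrillarin of the nucleolus, was at -0.87 (adjusted p = 0.0191) in the authors' deposited table.

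Several large gene families had more increases than decreases, with most members not called. Of 152 F-box A genes, which encode substrate adaptors of ubiquitin ligases, 42 rose and 2 fell (28 higher at 0.01), at a median of 1.00. The smallest p-values were those of fbxa-158 at 3.53 (adjusted p = 2.18e-13) and fbxa-182 at 2.22, and the highest value that of fbxa-165 at 4.94, by the authors' deposited table. Of 51 F-box B and C genes 6 rose and none fell, and of 87 MATH and BTB genes 13 rose and 1 fell, where the shares of increases, 11.8% and 14.9%, are near the 14.2% of all genes. Members of these families are similar in sequence, so their values are uncertain. Of 229 nuclear hormone receptor genes 43 rose and 3 fell (23 higher at 0.01), with a median of 0.56. At 0.01 that share was below the 11.1% of all genes. The smallest p belonged to nhr-56 at 1.94 (adjusted p = 1.69e-07), and the decreases were in nhr-114 and nhr-3, both at -1.19, and nhr-38 at -1.90 per the authors' deposited table. Of 43 O-acyltransferase genes 12 rose and 4 fell, from oac-29 at -3.45 to oac-27 at 4.54 in the authors' deposited table.

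Genes of defence and detoxification moved in both directions. Of 163 C-type lectin genes 30 rose and 20 fell, between clec-47 and clec-153 at 4.35 by the authors' deposited table. Their shares, 18.4% higher and 12.3% lower, were not far above the 14.2% and 9.82% of all genes. Of 45 lysozyme, saposin-like and thaumatin-like genes 13 rose and 14 fell. Beside ilys-2, lys-10 and thn-2, the increases included thn-1 at 4.87 and ilys-3 at 4.19, and the decreases spp-4 at -3.30 (adjusted p = 8.33e-26), lys-6 at -3.41 and lys-4 at -2.44 per the authors' deposited table. Of the intestinal response genes 26 rose, 15 fell and 74 were not called, and sysm-1 (T24B8.5), a readout of the p38 pathway, stood at -3.12 (adjusted p = 1.61e-11) in the authors' deposited table. This list includes pals genes such as pals-14 (F22G12.1), so its increases overlap with those of the pals family below. Cytochrome P450 genes were more often higher, 13 of 69 against 4 lower, with cyp-13A5 at 3.53 (adjusted p = 1.54e-20) by the authors' deposited table. Glucuronosyltransferase genes were more often lower, 19 of 64 against 5 higher, with ugt-65 at -3.06 and ugt-63 at -5.03 per the authors' deposited table. Glutathione transferase genes gave 7 higher and 5 lower of 45, and these shares, 15.6% and 11.1%, were near those of all genes. Epidermal antimicrobial peptide genes gave 3 of each in 17, with nlp-29, the best known of them, at 0.15 and not called in the authors' deposited table.

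Some smaller families were looked at after their values were seen. Among those of defence, 4 of 21 chil genes rose and none fell, at a median of -0.05, and of 4 ilys genes 2 rose and 1 fell. The pals genes encode proteins that respond to intracellular pathogens of the intestine such as microsporidia, and pals-22 and pals-25 are known as opposed regulators of that response. Of 24 listed pals genes 14 rose and none fell (10 at 0.01), at a median of 2.67. Some of them, such as pals-14, were already counted among the intestinal response genes above. The largest value was that of pals-33 (W08A12.4) at 6.58 (adjusted p = 1.58e-09), followed by pals-2 (C17H1.3) at 5.70 and pals-31 (F48G7.2) at 5.26 by the authors' deposited table. The smallest p-values belonged to pals-14 (F22G12.1) at 3.97 and pals-6 (C17H1.7) at 3.22 per the authors' deposited table. Both regulators were uncalled, with pals-22 (C29F9.1) at 0.31 and pals-25 (T17A3.2) at 0.16 in the authors' deposited table. In the double mutant the median of the 24 was 1.83 and in mir-58 it was 0.40. Also of this response, eol-1 (T26F2.3) stood at 3.34 (adjusted p = 2.13e-13) by the authors' deposited table. Members on the same chromosome are similar in sequence, so reads may have been split among them.

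**Figure D3:**
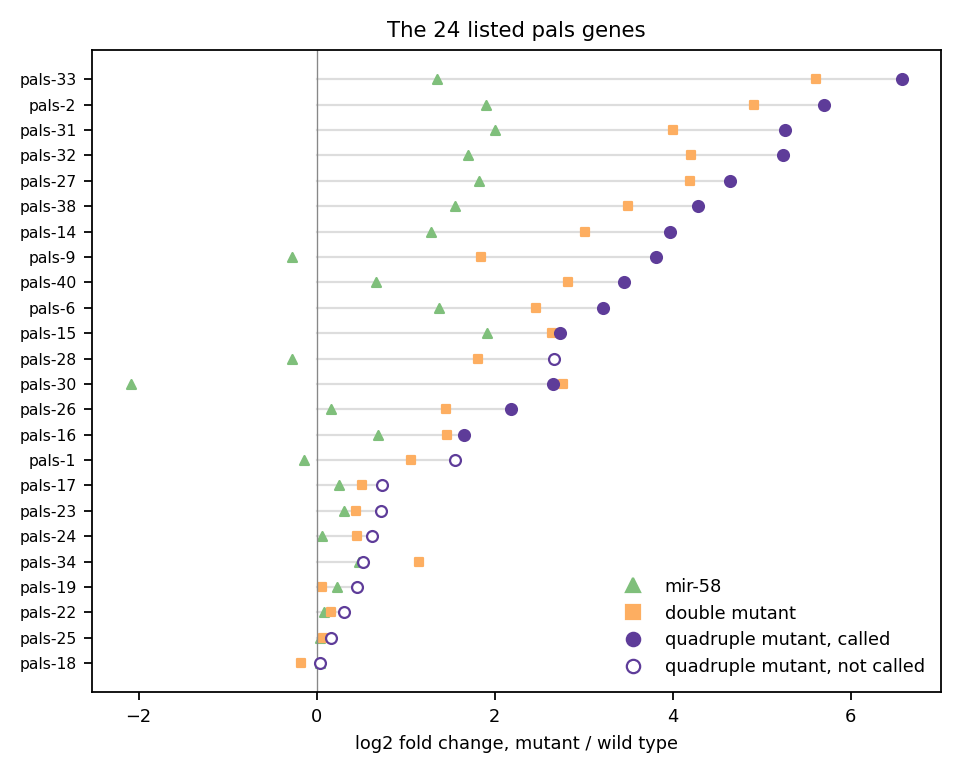
Rows are the 24 listed pals genes, ordered by their log2 fold change in the quadruple mutant, and the x axis gives the log2 fold change against wild type in mir-58 (triangles), the double mutant (squares) and the quadruple mutant (circles, filled where called). The 14 called genes stand at 1.66 or above in the quadruple mutant, and pals-22 and pals-25 are near 0 in all 3.

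Shares of calls in the neuronal and developmental lists that follow were below that of all listed genes. Of 484 chemoreceptor genes 19 rose and 1 fell, of the neuropeptide genes 6 rose, 7 fell and 90 were not called, of 81 Cys-loop channel genes 1 rose and 4 fell, and of 54 homeobox ceh genes 1 rose. The read depth of these genes is unknown. The neuropeptide gene flp-10 rose by 1.57 (adjusted p = 1.12e-07) per the authors' deposited table. Genes of neurotransmitter synthesis and loading gave 4 higher and 1 lower of 22, and their share of increases alone, 18.2%, was above the 14.2% of all genes. Among them stood the serotonin genes tph-1, of synthesis, and mod-5, of reuptake, at 1.49 and 1.36 per the authors' deposited table. The gene cat-4, of the pterin cofactor for serotonin and dopamine synthesis, fell to -0.93 in the authors' deposited table. In vulval, Ras and Notch signalling 2 of 26 genes rose, the EGF receptor gene let-23 by 1.51 (adjusted p = 3.51e-05) and the Ets factor gene lin-1 by 0.83 by the authors' deposited table. Of 13 heterochronic genes, which time larval development, mab-10 and sea-2 rose by 0.85 and 0.79 per the authors' deposited table, while lin-29, lin-41, hbl-1 and lin-14 were not called.

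Insulin-like peptide genes gave 4 higher and 4 lower of 30. The genes ins-4 and ins-7, agonists of the insulin receptor, rose by 2.39 (adjusted p = 3.42e-08) and 1.97 (adjusted p = 1.14e-04), and stood at 0.42 and 0.06 in the double mutant, per the authors' deposited table. The highest was ins-37 at 3.10, and among those that fell ins-13 was at -2.23 (adjusted p = 3.74e-11) by the authors' deposited table. In the receptor's own pathway aap-1 was the single call of 18, at 0.77, and the receptor gene daf-2 and the transcription factor gene daf-16 were at 0.62 and 0.15 per the authors' deposited table.

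Calls were unequal along the genome. By the chromosome of the WBcel235 annotation, 5.37% of 2233 listed genes on X were higher and 13.8% lower, against 15.8% and 9.34% of 13281 genes on the autosomes. The share of higher calls was 13.7% to 18.9% on the 5 autosomes, and the highest was on IV. Of 844 matched genes that rose at least 8-fold, 9 (1.07%) were on X, which holds 14.4% of the matched listed genes. Genes that act in the germ line, and sperm genes above all, are known to be scarce on X. No gene of either sperm list, with 16 and 52 members, is on X, and neither is any of the 67 mitochondrial ribosomal protein genes. Of 24 col genes on X 8 fell and 5 rose, and of 7 X-linked genes of the respiratory chain 6 fell. In the whole lists 32.4% of 148 col genes fell and 16.9% rose, and 65.7% of 70 respiratory chain genes fell. Decreases in these lists were thus not particular to X.

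**Figure D4:**
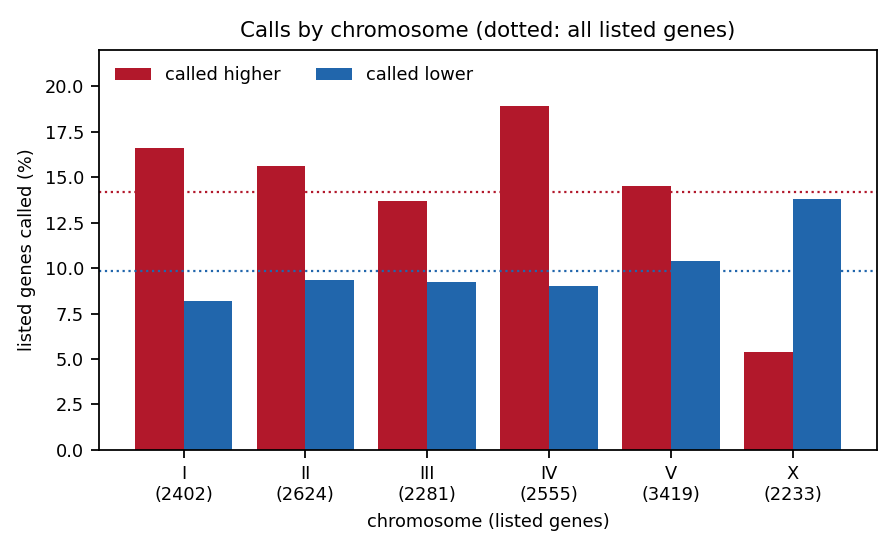
Bars give the percentage of the listed genes of each chromosome (numbers in brackets) that were called higher (red) or lower (blue) in the quadruple mutant, from 0, and dotted lines the shares of all listed genes, 14.2% and 9.82%. X has the lowest share of higher calls and the highest share of lower calls, 5.37% and 13.8%.

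Genes annotated as pseudogenes rose in 77 of 267 cases (28.8%) and fell in 4, with a median of 0.99, against 14% higher and 10.1% lower of 15225 protein-coding genes. Neighbouring genes were called together in places. There were 47 runs of at least 4 listed neighbours called in the same direction, 39 higher and 8 lower. The longest, of 8 genes each, were both on chromosome IV. One of 7 genes on the same chromosome runs from msp-81 at 4.55 through nspd-2 and ssq-1, all sperm genes, to K07F5.12 at 1.34 in the authors' deposited table. A run of 6 on chromosome I holds 5 pals genes, and the values of the whole run were between 2.41 and 5.70. Another of 6 on V holds fbxa-188, fbxa-189, fbxa-134 and skr-5, a gene of the same ligase class. The values of that whole run were between 1.24 and 3.20. The longest lower run, of 5 genes on V, was pqn-63 with idpc genes of the pharyngeal cuticle, from -2.34 to -1.16. The runs were looked for after the values were seen, and the part of reads shared between similar neighbours was not tested.

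The values of the quadruple mutant were then set beside those of the other mutants, which share its wild type samples but differ in collection time, so no comparison between them was tested. For sperm genes the list median was 3.16 in the quadruple and 3.34 in the double mutant but -1.33 in mir-58, and for major sperm proteins it was 4.43, 4.55 and -3.45. Adult cuticle collagens behaved in the same manner, at 2.18, 2.24 and -3.79. In the lists that follow all 3 medians had the same sign. They were -0.80, -0.60 and -0.28 for mitochondrial ribosomal proteins, -0.72, -0.51 and -0.23 for the respiratory chain, and -0.96, -0.61 and -0.17 for propionate breakdown, in quadruple, double and mir-58 mutants. F-box A genes stood at 1.00, 0.58 and 0.09. Some single genes stood far from the double mutant. C02E7.10 was at 7.09 in the quadruple and 1.44 in the double mutant, B0563.9 at 7.28 and 2.77, and ptr-10 at 1.35 and 0.31 by the authors' deposited table. The reported targets pmk-2 and sma-6, at 2.26 and 2.14 in the quadruple mutant, were at 1.2 and 1.46 in the double mutant and at 0.63 and 0.79 in mir-58 per the authors' deposited table.

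**Figure D5:**
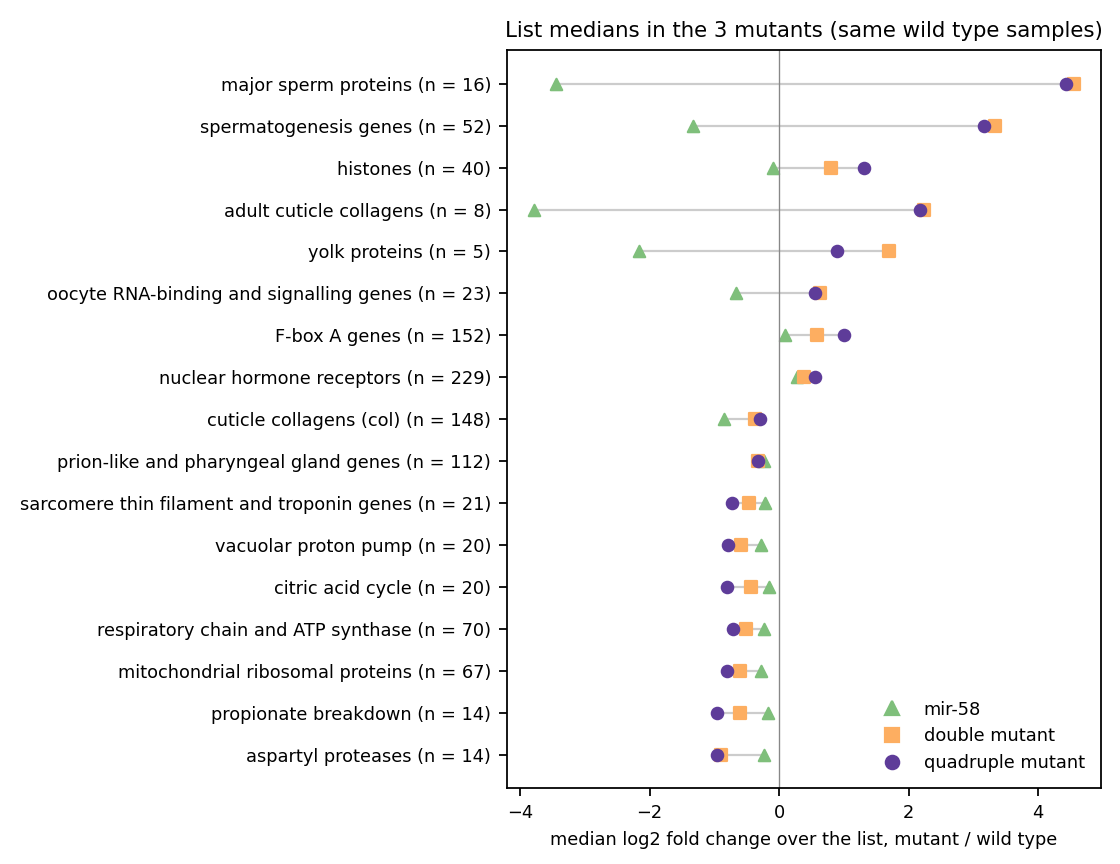
For 17 gene lists the x axis gives the median log2 fold change against the same wild type samples in mir-58 (triangles), the double mutant (squares) and the quadruple mutant (circles). Sperm, adult cuticle and yolk lists lie left of 0 in mir-58 and right of 0 in the multiple mutants, while mitochondrial, proton pump and protease lists lie left of 0 in all 3.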

How the data were processed

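The authors sequenced RNA of whole animals and deposited a table of their own comparisons. Its log2 fold changes and adjusted p-values, made by the authors, compare each mutant with wild type, per the file headers. The submitters' processing notes name DESeq with no version. Aligner, read counter, genome build and p-value adjustment are not given in the sources used here. Read numbers per sample were not analysed here, so no count test could be fitted, no replicate error or interval can be given, and precision rests on the deposited p-values.

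Of the 16309 names, 15514 were matched to Ensembl release 115 of WBcel235 (12476 by symbol, 3038 by sequence name), and 795 were not. The annotation gave names, chromosomes and neighbours, and no coordinates are printed. The 86 gene lists hold 3837 listed genes, 79 of them in more than 1 list. Members and lists were chosen with earlier results of these data known, so counts and medians are given with no test. Named were genes at the microRNA loci, reported targets, the 15 highest, lowest and smallest p-values per direction, and per list up to 4 called members per direction, its extremes and all members of lists of up to 12. Other named genes, mostly uncalled counterparts such as pmk-1, cth-2 and alg-1, with gas-1, sma-2, ced-9, ilys-3, the pals genes and the members of gene runs, were chosen after their values were seen. A list of tRNA synthetases matched only 2 genes and is not used. The counting was tested on simulated data. Scripts ran in Python 3.11.15 with pandas 2.3.3, numpy 2.4.6, matplotlib 3.10.9 and scipy 1.17.1.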

Additional observations from a re-analysis of the deposited data

How the results depend on the processing

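At an adjusted p under 0.01 there were 2844 calls, 1813 higher and 1031 lower, so the higher share moved from 59.1% to 63.7%. At 0.05 with a change of at least 2-fold, 1951 genes were higher and 881 lower, a higher share of 68.9%. Requiring 1.5-fold could change no count, since the smallest called log2 fold change, 0.60 in size, already exceeds it. Subtracting the median of all genes, 0.11, could change none either, since it leaves the p-values and the signs of called genes as they were. Names matched once gave 2219 higher and 1546 lower (58.9% higher). Of 172 list counts, 52 moved by over 1.5 times at 0.01 and 120 did not. The 120 include counts that were 0 at 0.05 and so could not move, among them those of the unused tRNA synthetase list. Those that moved include the lower counts of mitochondrial ribosomal proteins (53 to 32), the respiratory chain (46 to 23), the proton pump (13 to 8), thin filaments (11 to 7), translation factors (16 to 6) and chaperones (13 to 6), and the higher counts of histones (20 to 13), nuclear hormone receptors (43 to 23) and chemoreceptors (19 to 9). The lower count of all listed genes also moved by this rule, from 1602 to 1031, and their higher count, from 2318 to 1813, did not. At 0.01, chosen after seeing the data for chromosomes, 3.49% of X-linked genes were higher and 9.54% lower, against 12.5% and 5.93% on autosomes. No paired analysis was possible because the table holds no values per sample. For the same reason other normalisations, filters on low counts and fits without a replicate were not run, and counts by seed match were not run because no transcript sequence was used here. Depth is unknown, so an uncalled gene may have had too few reads for its change to be detected.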
